A study of Mus musculus with 12 samples.

Results

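Long non-coding RNA promoters were defined here as accessible regions whose highest summit lay within 1 kb of an annotated start of a long non-coding RNA (lncRNA) transcript and more than 1 kb from every start of a protein-coding transcript. Of 70945 accessible regions found in mouse hematopoietic stem cells (HSCs), 1511 met this rule, and they belonged to 1416 of 9241 annotated lncRNA genes (15.3%). A further 1468 regions near a lncRNA start were not members because a coding start was also within 1 kb. They were counted among the coding promoters with which members are compared below. The rule used positions, a minimum peak score of 3 and the highest-scoring summit of each region, and no comparison between groups.

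The assay was ATAC-seq: a transposase cuts accessible DNA and leaves tags from which it is sequenced. The 12 libraries fell into 4 groups of 3: Young WT and Young Mlkl-/- at 3 months of age, and Aged WT and Aged Mlkl-/- at 18 months, all of C57BL/6 background. Mlkl encodes the pseudokinase that ruptures membranes in necroptosis. The cells were bone marrow HSCs sorted as Lin-/cKit+/Sca1+/Flk2-/CD48-/CD150+, pooled for each library from several mice, with more animals in a young pool than in an aged one. In the Mlkl-/- mice every cell lacks the gene, so effects on stem cells and on their surroundings cannot be told apart. Each library was deposited as a list of peak summits. The lists held between 35696 and 61465 summits with a score of at least 3 (the −log10 of the q-value given by the peak caller) on chromosomes 1 to 19 and X, and the aged lists were longer on average (55221 ± 5346, SD, n = 6) than the young (44663 ± 7488). Read depth is unknown, so each list was cut to its 35696 highest-scoring summits, and all results below are from these equal-length lists unless deposited lists are named. Holding 1 summit or more of a list made a region called in that list. Its value in a library was the normal score of its rank among all regions: larger is a stronger peak relative to the rest of that list, and a region with no summit took a shared lowest value between −0.57 and −0.53. Starts of the stem cell genes Kit, Hlf, Tal1 and Meis1 were called in 12 of 12 lists, whereas Slamf1, which encodes the sorted CD150 antigen, was called in 0. Starts of 3 T cell, 3 B cell and 4 myeloid genes were called in 0 lists, and among erythroid genes the start of Epb42 was called in 8 and that of Klf1 in 0. The Mlkl start was called in 5 young lists and 3 aged ones, Mlkl-/- libraries included, and so does not check the deletion.

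A lncRNA is a transcript with little or no coding potential that is usually capped and spliced like a messenger RNA. Some act in place on the chromosome that makes them, such as Xist, Airn and Kcnq1ot1 in gene silencing. Others are mainly carriers of small RNAs that are cut from their introns or exons. Many lncRNA starts coincide with enhancers or lie back to back with other genes, and an open lncRNA promoter does not show that the transcript is made.

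The sequences at the summits of members described below are shown first, since they let the accessible centre of each region be read beside its values. Each is the plus strand of the mouse genome (RefSeq copy of GRCm38, the mm10 build), 75 bases on each side of the summit. Capitals mark matches, on either strand, to 8 short motifs. For factors prominent in blood cells these were AGGAAGT for the ETS family, TGTGGTT for the RUNX family and AGATAAG for the GATA family. For factors that respond to signals they were TGANTCA for AP-1 and GAAANNGAA for the IRF family. For general promoter elements they were GGGCGG for the GC box, the letters of its own name for the CCAAT box, and TATAAA for the TATA box. No motif holds another whole. A match is a string of letters and not a measured binding site. Regions with higher values at 18 months came from chr4:130779182-130779332 (Gm26516), chr12:16849818-16849968 (Gm36495), chr14:105588816-105588966 (9330188P03Rik), chr13:5724447-5724597 (Gm35330) and chr16:87128315-87128465 (Gm32865):
Gm26516: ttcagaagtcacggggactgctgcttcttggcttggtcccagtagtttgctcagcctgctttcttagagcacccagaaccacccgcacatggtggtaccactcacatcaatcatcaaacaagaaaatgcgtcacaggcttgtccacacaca
Gm36495: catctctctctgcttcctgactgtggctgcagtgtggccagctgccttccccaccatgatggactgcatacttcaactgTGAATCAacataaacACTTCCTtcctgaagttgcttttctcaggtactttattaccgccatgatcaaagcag
9330188P03Rik: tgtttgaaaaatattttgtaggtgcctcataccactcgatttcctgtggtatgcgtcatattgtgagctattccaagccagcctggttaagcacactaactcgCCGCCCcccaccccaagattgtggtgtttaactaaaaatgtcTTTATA
Gm35330: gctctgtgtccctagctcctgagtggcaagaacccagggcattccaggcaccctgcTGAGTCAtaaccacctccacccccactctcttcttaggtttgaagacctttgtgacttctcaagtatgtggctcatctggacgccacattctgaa
Gm32865: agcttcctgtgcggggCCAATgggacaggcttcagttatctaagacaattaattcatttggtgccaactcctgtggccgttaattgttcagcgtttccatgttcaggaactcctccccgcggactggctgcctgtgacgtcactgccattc

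Regions with lower values at 18 months came from chr12:100986623-100986773 (Gm36756), chr5:116309555-116309705 (Gm13838), chr14:103464556-103464706 (Gm34907), chr13:37718472-37718622 (Gm40918) and chr2:35504216-35504366 (Gm35202):
Gm36756: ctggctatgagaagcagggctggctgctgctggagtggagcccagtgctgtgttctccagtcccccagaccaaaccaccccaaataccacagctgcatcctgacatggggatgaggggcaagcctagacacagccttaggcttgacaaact
Gm13838: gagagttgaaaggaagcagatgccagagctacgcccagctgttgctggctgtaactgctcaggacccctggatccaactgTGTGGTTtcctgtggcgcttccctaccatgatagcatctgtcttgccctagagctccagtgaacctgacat
Gm34907: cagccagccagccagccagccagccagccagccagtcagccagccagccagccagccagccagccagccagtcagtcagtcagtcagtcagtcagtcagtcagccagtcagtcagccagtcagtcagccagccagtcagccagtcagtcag
Gm40918: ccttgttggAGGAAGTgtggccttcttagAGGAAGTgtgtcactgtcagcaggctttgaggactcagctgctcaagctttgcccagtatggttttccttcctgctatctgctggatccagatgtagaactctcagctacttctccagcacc
Gm35202: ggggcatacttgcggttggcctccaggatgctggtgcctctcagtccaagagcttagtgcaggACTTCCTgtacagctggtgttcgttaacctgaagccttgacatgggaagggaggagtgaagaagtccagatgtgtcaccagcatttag
The Gm34907 stretch is a tandem repeat of a short unit, and 5 other places in the genome matched its surroundings over at least 70 bases at 95% identity or more, so reads there could be split between copies.

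The region with the highest mean value of all members, at chr13:4771574-4771724 (Gm5444), held 4 motif matches:
Gm5444: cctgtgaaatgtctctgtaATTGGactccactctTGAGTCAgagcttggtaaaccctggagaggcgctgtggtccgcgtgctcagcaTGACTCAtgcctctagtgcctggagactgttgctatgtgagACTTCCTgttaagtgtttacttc

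Most members were lincRNA promoters, that is, of lncRNA genes lying between coding genes (886 of 1511, 58.6%). There were 441 promoters of antisense transcripts, 179 of processed transcripts and 5 of transcripts annotated as bidirectional. Of the 1511 promoters, 917 carried a provisional Gm name and 369 a RIKEN clone name. The summit lay a median of 230 bp from the lncRNA start and 32.0 kb from the nearest coding start. It fell within an exon of the lncRNA in 348 members, in an intron in 391 and outside the lncRNA gene in the others. Of the others, 189 lay in an intron of a coding gene and 44 in a coding gene's exon. In the last 100 bp inside the distance limit there were 89 members, and in the first 100 bp outside it 90 regions. A start of another kind of gene, most often a miRNA, lay within 1 kb of 82 members.

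In base composition the members stood between coding promoters and intergenic regions. The median GC content of the 250 bases on each side of the summit was 51.9% in members, 62.5% in 15423 coding promoters and 47.5% in 21814 intergenic regions. CpG-rich sequence (GC of at least 50% and a CpG observed-to-expected ratio of at least 0.6) was found in 317 members (21%), in 70.8% of coding promoters and in 3.56% of intergenic regions. Within 100 bp of the summit, the GC box was present in 22.0% of members, 53.1% of coding promoters and 8.50% of intergenic regions. The ETS, AP-1 and RUNX motifs were more frequent in members than in coding promoters and less frequent than in intergenic regions: ETS was present in 16.3%, 7.37% and 18.2%, AP-1 in 10.8%, 3.77% and 12.3%, and RUNX in 7.48%, 3.03% and 12.3% of members, coding promoters and intergenic regions. GATA matched in 3.38% of members, IRF in 6.55%, the CCAAT box in 21.2% and the TATA box in 4.77%, against 3.99%, 7.38%, 22.1% and 6.76% of all regions. For the CCAAT box, members were below both other classes, with 26.9% of coding promoters and 22.0% of intergenic regions. These shares describe the classes and were not tested.

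The members varied widely in how often they were called. In 377 (25.0%) a summit was found in all 12 lists, against 54.8% of coding promoters and 12.4% of intergenic regions. In 308 members no equal-length list held a summit, 188 were called in 1 list and 112 in 2. The remaining 903 were called in at least 3 lists and entered the tests below. Of the 317 CpG-rich members 133 (42.0%) were called in all 12 lists, whereas 244 of 1194 CpG-poor members were (20.4%). Members with the summit within 100 bp of the start were called in all 12 lists in 149 of 458 cases (32.5%), and those more than 500 bp away in 76 of 436 (17.4%).

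**Figure D1:**
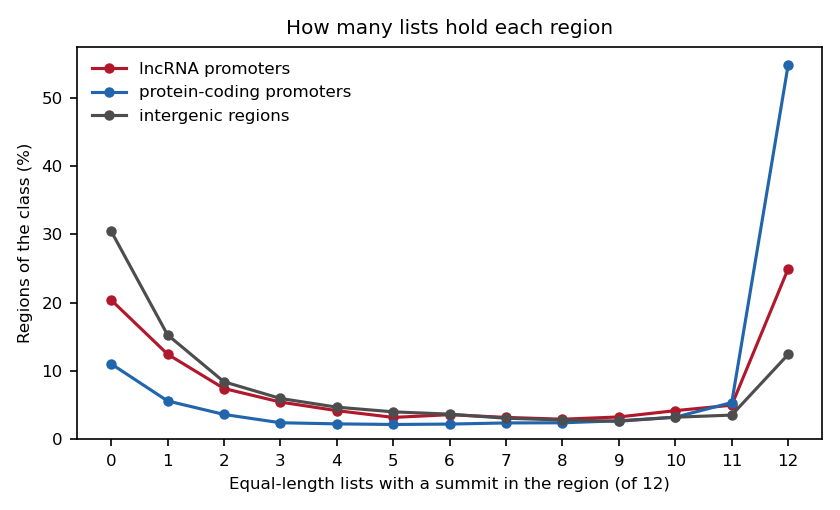
Percentage of regions (y axis) called in 0 to 12 equal-length lists (x axis), for 1511 lncRNA promoters, 15423 protein-coding promoters and 21814 intergenic regions. At 12 lists the lncRNA promoters (25.0%) sit between coding promoters (54.8%) and intergenic regions (12.4%).

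Averaged over members, values ranked below coding promoters and above intergenic regions in every library. The mean normal score of the 1511 members was 0.54 below that of coding promoters (12 of 12 libraries, exact sign-flip permutation test over libraries, two-sided p = 0.000488, the smallest it can give, adjusted p = 0.00195 over the 8 permutation tests made). It was 0.25 above that of intergenic regions (12 of 12 libraries, exact permutation p = 0.000488, adjusted p = 0.00195). Both tests ask whether the gap repeats over libraries that share the same regions, and do not measure the spread between regions.

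The strongest members were mostly uncharacterised lincRNA starts. Gm5444 on chromosome 13 had the highest mean value (3.05 ± 0.41, SD, n = 12) and ranked between position 16 and 822 of all regions in the individual lists. Its deposited score ran from 37.4 to 93.1. Gm5165 followed with 2.80 ± 0.30 and Gm43020 with 2.73 ± 0.25. The other 9 of the 12 members with the highest means had values between 2.30 (AC162612.1) and 2.54 (Gm44686, which starts in an intron of the chromatin remodeller gene Chd2). The standard deviations of neighbours in this order were larger than the steps between them. None of these 12 passed the age test, with adjusted p from 0.20 (BC002059) to 0.73 (Gm31793) in limma. For 4 of them, Gm6712, BC002059, 9330159M07Rik and Gm31793, at least 1 other place in the genome matched the 301 bases at the summit over 245 to 303 bases at 95.1% to 95.4% identity. The copy closest to Gm6712 was the BC002059 region, so the values of this pair are uncertain.

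To ask whether lncRNA promoters differ with age, the 6 libraries at 18 months were compared with the 6 at 3 months over both genotypes. Of 903 members tested, 13 rose and 10 fell (limma, Benjamini-Hochberg over all regions tested, adjusted p under 0.01). The share that changed, 2.55%, was near the background of all 37846 regions tested, 2.71% (1.71% higher and 1% lower). At an adjusted p under 0.05 there were 59 members, against 7.78% of all regions. In the same fit, at the limit of 0.01, 0.51% of coding promoters and 3.94% of intergenic regions changed. The median change over the 903 members was −0.015 against −0.0072 over all regions. All 23 members that changed were CpG-poor, the class that made up 674 of the 903 tested. The same split is not given for all regions that changed, so this is not shown to be particular to members. The young and aged values did not overlap in 35 members (3.88%), the same percentage as over all regions (3.88%). List length moved with age as given above, and with it as a covariate 0 of the 23 passed (limma, 60 of all regions did). Of the 9 libraries whose files share an unexplained tag, the same comparison gave 2 members. Summits at the starts of Y-linked genes were found in 3 of 6 young and 0 of 6 aged libraries, while the labels give no sex. With their presence as a covariate 6 members passed, 5 of them among the 23, so 18 did not. The part of list length and of sex in these changes was not tested further.

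**Figure D2:**
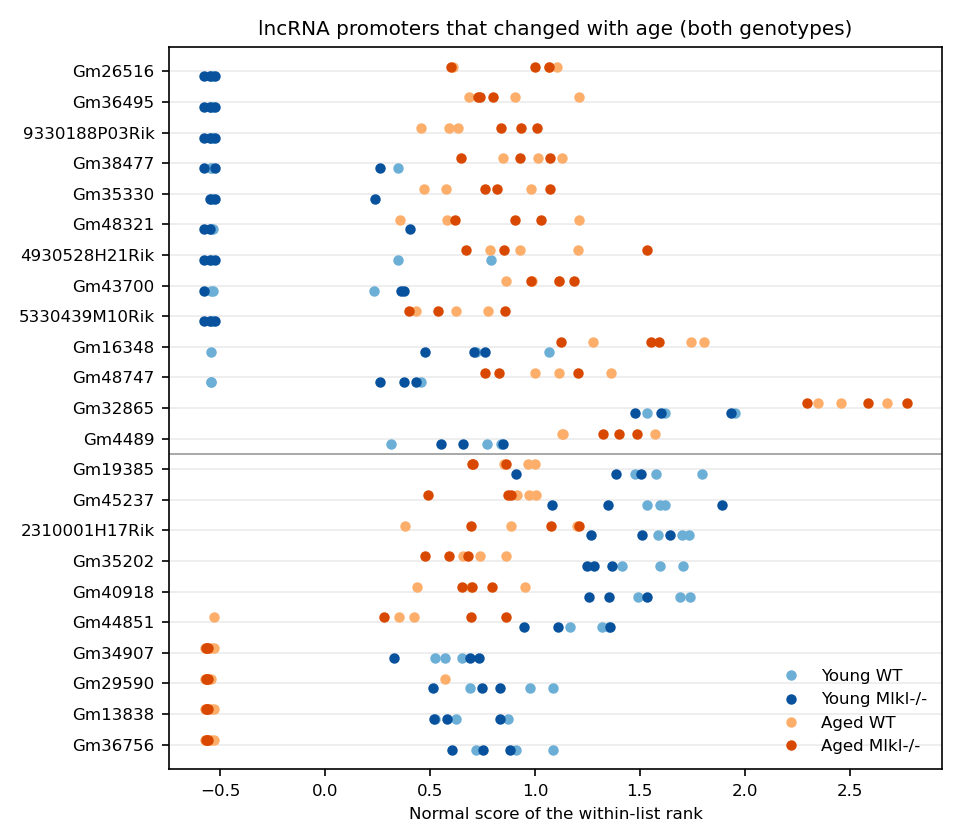
Normal score of the within-list rank (x axis) in each of the 12 libraries for the 23 lncRNA promoters (rows) that changed with age. Each point is a library, and colours give the 4 groups. Rows above the line were higher at 18 months and rows below it lower; points near −0.55 are lists without a summit.

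Among promoters that rose, 4 were called in all 6 aged lists and in no young list. These 4 met the filter of at least 3 lists through the aged lists alone, and their young values are all the shared lowest value. Their SE and adjusted p therefore cannot be read like those of promoters with summits at both ages. Gm26516 is a lincRNA gene, and its region (chromosome 4, 130778831 to 130779548) lies 11 bp upstream of the start. Its values at 18 months were 0.61, 1.10 and 1.07 in WT and 1.0, 0.60 and 1.07 in the Mlkl-/- libraries. All 6 young libraries were without a summit, so the groups did not overlap. The change was 1.45 ± 0.21 (SE), the largest of any member (limma adjusted p = 0.000523), although 2 of the 6 deposited young lists did hold a summit there.

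Gm36495 (chromosome 12, 16849599 to 16850162) lies in an intron of that lincRNA gene, 38.9 kb from the start of E2f6, which encodes a repressor of the E2F family. Its aged values ran from 0.69 through a median of 0.77 to 1.21, and no young list, equal-length or deposited, held a summit. The change was 1.39 ± 0.21 (SE, limma adjusted p = 0.000607). The promoter of 9330188P03Rik (chromosome 14, 105588597 to 105589170) had aged values of 0.46 to 1.01 with a median of 0.74, and again no young list of either kind held a summit. Its change was 1.29 ± 0.20 (limma adjusted p = 0.000914). The promoter of 5330439M10Rik (chromosome 10, 118112190 to 118112747) had aged values from 0.40 to 0.86 and no summit in any young list, with a change of 1.15 ± 0.21 (adjusted p = 0.00238). Over all regions tested, 263 showed this pattern of 6 aged and 0 young lists.

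Gm32865 differed from these in being strong at both ages. Its region on chromosome 16 (87128100 to 87128657) lies in an exon of the lincRNA, 49 bp inside the transcript and 225.8 kb from the nearest coding start, that of the methyltransferase gene N6amt1. Young values were 1.53, 1.62 and 1.95 in WT and 1.94, 1.60 and 1.48 in Mlkl-/-. Aged values were 2.68, 2.46 and 2.35 in WT and 2.77, 2.58 and 2.30 in Mlkl-/-. Every aged library was above every young library, and the change was 0.84 ± 0.13 (SE, limma adjusted p = 0.000931). The promoter of Gm38477, another lincRNA gene 78.3 kb away, rose as well, from a median of −0.53 (called in 2 of 6 young lists) to 0.97 (6 of 6 aged lists), by 1.20 ± 0.23 (adjusted p = 0.00367). Within 100 kb of either one, the other was the 1 region tested.

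The other 7 promoters that rose had changes between 0.68 (Gm4489) and 1.19 (Gm35330) and adjusted p between 0.003 and 0.00795. Gm35330 starts 137.0 kb from Klf6, a zinc-finger factor gene, and was called in 1 young and 6 aged lists, with aged values from 0.47 to 1.07. Gm48321 starts in an intron of Thrb, a thyroid hormone receptor gene, and 1 Young Mlkl-/- library (0.40) lay within the aged range of 0.36 to 1.21. Gm48747 starts in an intron of Trim9, which encodes a ubiquitin ligase, and its young values of −0.54 to 0.46 lay below all aged values (0.76 to 1.36). Gm4489 was called in all 12 lists, with young values up to 0.85 and aged values from 1.13. Gm43700, 4930528H21Rik and Gm16348 were called in 3, 2 and 5 young lists, and in 6 aged lists each. Leaving out any 1 library kept 5 of the 13 past the threshold each time, namely the 4 all-or-none promoters and Gm32865. For the 4, the young values were all the shared lowest value, so passing again is not separate support for a change.

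Among promoters that fell, 3 were called in all 6 young lists and in no aged list, as were 133 of all regions tested. The limit given for the all-or-none promoters that rose holds here too. These 3 met the filter through the young lists alone, and their aged values are all the shared lowest value. Gm36756 is antisense to Ccdc88c, which encodes a Dishevelled-binding protein, and its region on chromosome 12 (100986434 to 100987190) lies in an exon of the lncRNA and an intron of the coding gene. Young values were 0.72, 1.08 and 0.91 in WT and 0.88, 0.60 and 0.75 in Mlkl-/- libraries, and they fell by 1.38 on the normal score scale (SE 0.21, limma adjusted p = 0.000607). The deposited aged lists did hold a summit there in 5 of 6 cases, so the region became weaker in rank and was not absent.

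The values of Gm13838 (chromosome 5, 116309335 to 116309933) fell by 1.21 (SE 0.21, adjusted p = 0.00162) from young values of 0.52 to 0.87. Those of Gm34907, the region over the tandem repeat, fell by 1.14 (SE 0.21, adjusted p = 0.00229). Summits were present in 4 of 6 deposited aged lists for each. Gm29590 was called in 6 young lists and 1 aged list, Aged WT 2 with 0.57, and its values fell by 1.18 (SE 0.24, adjusted p = 0.00496). A second lincRNA promoter 209.0 kb from it on chromosome 13, Gm40918, was called in all 12 lists. Its young values were 1.49, 1.69 and 1.74 in WT and 1.53, 1.26 and 1.35 in Mlkl-/-. Its aged values were 0.44, 0.95 and 0.70 in WT and 0.70, 0.80 and 0.65 in Mlkl-/-, all below the young ones (fell by 0.80, SE 0.12, adjusted p = 0.00077).

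Gm35202 on chromosome 2 (35503990 to 35504559) lies in an intron of the lincRNA, 42.8 kb from Ggta1, a galactosyltransferase gene. Young values ran from 1.25 through a median of 1.39 to 1.70, and aged values from 0.47 through 0.67 to 0.86. The groups did not overlap, and the values fell by 0.77 (SE 0.12, adjusted p = 0.000734). Gm44851 starts in an intron of Furin, which encodes a proprotein convertase, 1.17 kb from a Furin start and so just outside the coding limit. Its young values were 0.95 to 1.36, its aged values −0.53 to 0.86, and they fell by 0.86 (SE 0.18, adjusted p = 0.00673). The remaining 3 promoters, 2310001H17Rik (42.3 kb from the early activation gene Cd69), Gm45237 (78.4 kb from the growth factor receptor gene Fgfr1) and Gm19385 (66.5 kb from the beta-catenin gene Ctnnb1), were called in all 12 lists. Their values fell by 0.67, 0.66 and 0.59 (adjusted p = 0.00804, 0.00662 and 0.00769). Gm36756, Gm13838, Gm34907, Gm40918 and Gm35202 passed with any 1 library left out, and the other 5 did not. For Gm36756, Gm13838 and Gm34907, whose aged values were all the shared lowest value, this is not separate support for a change.

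Within 100 bp of the summit, 5 of the 13 promoters that rose held an ETS match, 5 an AP-1 match and 6 a CCAAT box. Of the 10 that fell, 3 held an ETS match, 1 an AP-1 match and 2 a CCAAT box. The shares over all members are given above, and the counts were not tested against them.

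The age comparison was then made within each genotype. In WT, 0 members passed (limma, 0.201% of all regions did), the lowest adjusted p of a member was 0.014, and 112 of 903 (12.4%, all regions 14.5%) had an unadjusted p under 0.05. In Mlkl-/-, 0 members passed (0.151% of all regions), the lowest adjusted p was 0.0182, and 118 (13.1%, all regions 14.4%) had an unadjusted p under 0.05. At an adjusted p under 0.05 the counts were 15 and 10 members, against 1.99% and 1.5% of all regions. For the 23 members that changed over both genotypes, the change had the same sign in WT and Mlkl-/- in 23 of 23, a description only, since both enter the pooled change. The 13 higher ones ran from 0.64 to 1.47 in WT and from 0.58 to 1.57 in Mlkl-/-. The 10 lower ones ran from −1.45 to −0.62 in WT and from −1.31 to −0.48 in Mlkl-/-. Across all 903 members the sign was the same in 607 (67.2%), against 64.2% of all regions tested. The difference between the age changes of the 2 genotypes passed in 0 members (limma interaction, 0% of all regions, lowest adjusted p of a member 0.966), and 38 members (4.21%, all regions 4.78%) had an unadjusted p under 0.05.

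**Figure D3:**
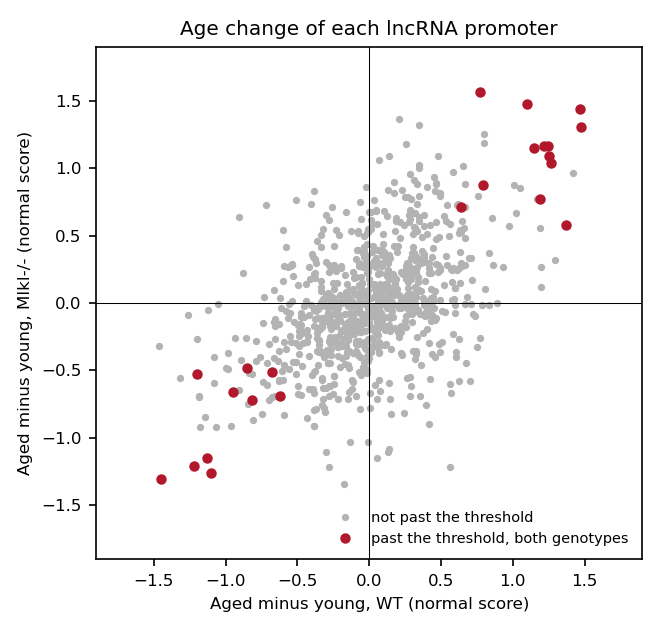
Change in normal score from 3 to 18 months in WT (x axis) and in Mlkl-/- (y axis) for the 903 lncRNA promoters tested. Each point is a promoter, and the 23 past the threshold over both genotypes are in red. All 23 lie in the lower left or upper right quadrant.

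The set of lncRNA promoters called was compared between lists as well. The overlap between a pair of lists was measured as the Jaccard index, the number of members called in both divided by the number called in either. It averaged 0.693 over 30 pairs of the same age and 0.652 over 36 pairs of different age, a difference of 0.040 (exact permutation test of age labels within genotype, two-sided p = 0.005, the smallest it can give, adjusted p = 0.0133). The same difference was 0.049 over all regions, 0.012 in coding promoters and 0.066 in intergenic regions, values that were not tested against each other. The lists were of equal length here, but the deposited lists they were cut from were longer at 18 months, and the part of that in the difference was not tested. For genotype the averages were 0.670 and 0.671 (exact permutation p = 0.835, adjusted p = 0.94).

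The number of members called per list was slightly larger at 18 months. It was 701, 690 and 717 in Young WT, 701, 712 and 711 in Young Mlkl-/-, 727, 720 and 734 in Aged WT, and 735, 730 and 704 in Aged Mlkl-/-. The age groups overlapped through Aged Mlkl-/- 3 alone. The difference was 19.7 members (exact permutation, two-sided p = 0.025, adjusted p = 0.05 over 8 tests, so not under the limit of 0.05). Without Young Mlkl-/- 1 or Young Mlkl-/- 3 the unadjusted p was 0.05 and 0.055. A larger number at 18 months was not particular to members. Intergenic regions called averaged 7021 ± 519 in young and 7425 ± 506 in aged equal-length lists (SD, n = 6). For coding promoters the averages were 11196 ± 335 and 10946 ± 299, lower at 18 months. The counts of these classes were not tested. In the deposited lists, which were longer at 18 months, the means were 866 ± 128 members in the young and 1045 ± 87.6 in the aged libraries (SD, n = 6). The gap in mean normal score to coding promoters was −0.56 ± 0.037 in young and −0.52 ± 0.044 in aged libraries (SD, n = 6), a difference of 0.041 that did not pass (exact permutation p = 0.125, adjusted p = 0.2). Between genotypes the number called differed by 0.667 (p = 0.94 in the exact permutation test, adjusted p = 0.94; 714.8 ± 16.5 in WT and 715.5 ± 13.9 in Mlkl-/-), and the gap to coding promoters by 0.017 (exact permutation p = 0.52, adjusted p = 0.693).

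**Figure D4:**
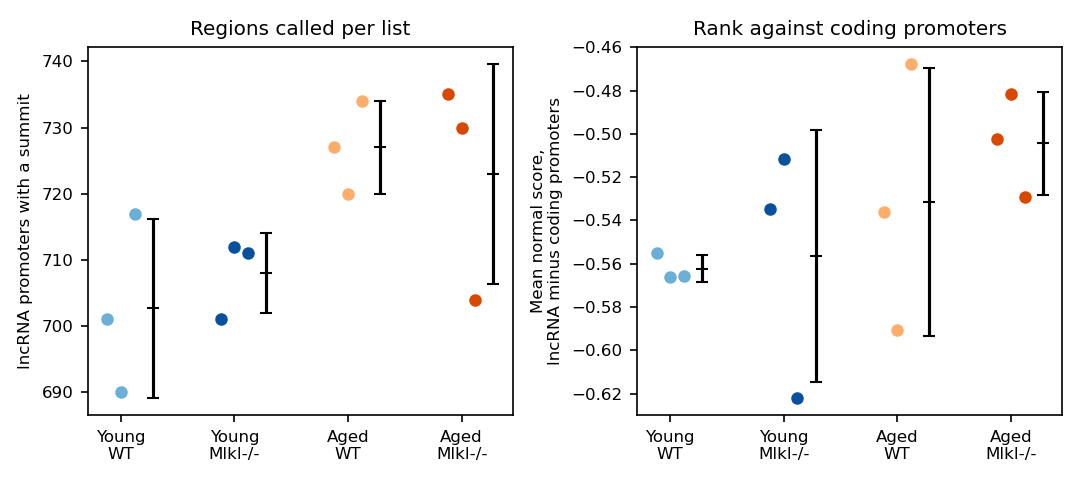
Left, number of the 1511 lncRNA promoters called in each equal-length list. Right, mean normal score of lncRNA promoters minus that of coding promoters. Points are libraries in the 4 groups, and bars give the mean and SD of each group (n = 3). The y axes do not start at 0. On the left 5 of 6 aged libraries lie above all young ones, and the ages overlap on the right.

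No lncRNA promoter passed the test for loss of Mlkl. Over both ages 0 of 903 members were called (limma, 0% of all regions), the lowest adjusted p was 0.763, and 49 members (5.43%, all regions 6.23%) were below 0.05 before adjustment. At 3 months there were 0 (0% of all regions, 36 members or 3.99% at an unadjusted p under 0.05 against 5.37% of all regions, lowest adjusted p 0.528), and at 18 months 0 (0% of all regions, 53 members or 5.87% at an unadjusted p under 0.05 against 5.09% of all regions, lowest adjusted p 0.631). The members with the lowest unadjusted p are given as values that did not pass. Gm17133, an antisense gene whose summit lies in an exon of the mannosidase gene Man2a1, had values of 0.95, 0.95 and 0.82 in Young WT, 1.33, 1.46 and 1.23 in Young Mlkl-/-, 1.32, 1.39 and 1.41 in Aged WT and 2.03, 1.75 and 1.67 in Aged Mlkl-/-. The genotype difference was 0.44 ± 0.11 (SE, limma adjusted p = 0.763), with no overlap within either age, and its age difference of 0.47 just missed the threshold (adjusted p = 0.0124). Gm40649 was called in 0 of 3 Young WT lists and had values of 0.90, 1.0 and 0.79 in Young Mlkl-/- (difference 1.44 ± 0.41 at 3 months, adjusted p = 0.556). Gm28199 and AC151280.1 went the other way at 3 months, with differences of −1.27 ± 0.34 and −1.16 ± 0.31 (adjusted p = 0.528 for each). At 18 months the lowest p was that of A930003A15Rik, with 1.12, 0.59 and 1.51 in Aged WT and 1.58, 2.33 and 1.97 in Aged Mlkl-/- (difference 0.89 ± 0.23, adjusted p = 0.631). A730011C13Rik and Gm33370 had differences of 0.98 and 0.97 (adjusted p = 0.649 for each). Over both ages 1700025N23Rik had a difference of −0.79 ± 0.21 (adjusted p = 0.763). For the interaction the lowest p were those of AC102333.1 (−1.77), Gm32856 (−0.86, with 3 similar copies in the genome) and Gm49442 (1.44), at an adjusted p of 0.966 for each.

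A set of 6 lists of lncRNA genes was then read, with the members in each taken by name. None of their promoters passed the age or genotype test (limma, adjusted p under 0.01).

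Hosts of small nucleolar RNAs, which guide the modification of ribosomal RNA, were read first. Of 16 annotated genes 9 had a member, in 10 regions, of which 7 were called in all 12 lists. In 6 other genes, among them Gas5 and Zfas1, the region also lay within 1 kb of a coding start. Snhg8 had the highest mean value (2.05 ± 0.18, SD, n = 12), followed by Snhg15 (1.92 ± 0.32), and Snhg12 and Snhg20 were called in only some lists. The age change was above 0 in 4 and below 0 in 6 of the 10 tested (median −0.14, all regions −0.0072).

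Hosts of microRNAs, the short RNAs that repress messages through a seed at bases 2 to 8, were read as a list of names. The list had 14 members from 10 of 14 annotated genes, 7 of them called in all 12 lists. It also held Mirt1, which had a member, and Mirt2, which had none. Neither is named as a microRNA host, so the counts are those of the list and not of hosts alone. The mature RNAs below lie inside hosts with an open promoter in all 12 lists, and are shown because they are the products such promoters would serve. The sequences are from RefSeq, with the seed in capitals:
mmu-miR-142a-3p: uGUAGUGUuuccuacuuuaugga
mmu-miR-155-5p: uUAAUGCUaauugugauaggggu
mmu-miR-17-5p: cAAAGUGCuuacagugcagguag
mmu-miR-20a-5p: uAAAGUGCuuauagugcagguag
mmu-miR-22-3p: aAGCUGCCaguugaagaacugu
mmu-let-7c-5p: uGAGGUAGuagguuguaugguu
mmu-miR-125b-5p: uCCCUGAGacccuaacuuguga
mmu-miR-15a-5p: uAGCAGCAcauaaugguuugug
mmu-miR-16-5p: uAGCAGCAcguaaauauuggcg
The seeds of miR-17 and miR-20a are the same, as are those of miR-15a and miR-16. Mir142hg, the host of the blood-specific miR-142, had a mean value of 0.69 ± 0.28 (SD, n = 12) and an age change of −0.079 ± 0.18 (SE, limma adjusted p = 0.834). Mir155hg, the host of the inflammatory miR-155, was at 1.05 ± 0.23 with an age change of −0.18 ± 0.13 (adjusted p = 0.464). Mir17hg, the host of the growth-promoting miR-17 to miR-92 cluster, was at 0.85 ± 0.25 with a change of −0.00036 ± 0.16. Mir99ahg, which carries let-7c and miR-125b, had 3 start regions of different strength, called in 2, 10 and 12 lists. The strongest had young values from 0.96 through a median of 1.23 to 2.28 and aged values from 1.45 through 1.78 to 2.10, which overlap (change 0.44 ± 0.17, adjusted p = 0.12). At the stronger start of Dleu2, which carries miR-15a and miR-16, values were 1.01 ± 0.19 in young and 0.70 ± 0.086 in aged libraries (SD, n = 6), with a change of −0.32 ± 0.14 (SE, adjusted p = 0.189). Mir124-2hg, Mir670hg and Mir9-3hg, whose products are known from neural tissue, were called in 0 equal-length lists and 1 deposited list each.

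Imprinted and X-inactivation lncRNAs had 10 members from 9 of 12 annotated genes. Kcnq1ot1, which silences genes in cis on the paternal chromosome, was called in all 12 lists at 1.31 ± 0.16 (SD, n = 12). Firre, Jpx and the main Ftx start, all on the X chromosome, were also called in all 12. Airn, which silences Igf2r in cis, was found in 2 young and 4 aged lists, with aged values of −0.54, −0.53 and 0.93 in WT and 1.29, 0.80 and 0.38 in Mlkl-/- (age change 0.65 ± 0.29, limma adjusted p = 0.189). H19 was called in 1 list and Nespas in 0, and Meg3 and Rian had no region within 1 kb of a start. The Xist start was called in 2 lists, Aged Mlkl-/- 1 and 2, and among deposited lists in Aged WT 3 as well. Summits at the starts of the Y-linked genes Ddx3y, Eif2s3y, Kdm5d and Uty were found in Young WT 1 (2 summits), Young Mlkl-/- 1 (5) and Young Mlkl-/- 2 (2), and in 0 of the 9 other libraries. These values move with age, and the age comparison with Y-gene summits as a covariate is given above.

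Widely expressed lncRNAs had 4 members from 8 annotated genes. The region near Malat1, the abundant nuclear-speckle RNA, was called in all 12 lists at 1.22 ± 0.36 (SD, n = 12), 966 bp upstream of the start. Pvt1, the neighbour of Myc, was called in 2 young and 4 aged lists, and 2900097C17Rik in 4 and 6. Lncpint was called in 0 equal-length and 2 deposited lists. Tug1 and Rmrp were left out by the coding rule. The region near Neat1 was assigned to a nearer lncRNA start, and Miat had no region within 1 kb. In the Hox clusters 1 of 10 genes had a member: Hoxd3os1, antisense within the Hoxd cluster, was called in all 12 lists at 0.64 ± 0.28. Hotairm1 had a region also near a coding start, and the other 8 had none.

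The list headed blood and immune had 9 members from 8 of 11 annotated genes, 6 of them called in all 12 lists. Of the 9, 5 are also microRNA hosts given above. Bvht and Fendrr were in it by the choice of names, and a role of theirs in blood is not shown here. Ptgs2os2, a lincRNA near Ptgs2, the gene of the inducible prostaglandin synthase, came closest to the threshold of all list members. Its values were 1.26, 1.68 and 1.45 in Young WT, 1.55, 1.62 and 2.01 in Young Mlkl-/-, 2.32, 1.82 and 1.94 in Aged WT and 2.51, 2.44 and 1.98 in Aged Mlkl-/-. The age groups overlapped through Young Mlkl-/- 3, and the difference was 0.57 ± 0.14 (SE, limma adjusted p = 0.0158). Lockd, downstream of the cell cycle inhibitor gene Cdkn1b, was steady at 1.49 ± 0.16 (SD, n = 12). Gm14005, also known as Morrbid and linked to the lifespan of myeloid cells, was called in 4 young and 3 aged lists. Bvht was called in 0 young and 3 aged lists (age change 0.43 ± 0.23, adjusted p = 0.265). Trp53cor1 and Fendrr had no region within 1 kb of a start.

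**Figure D5:**
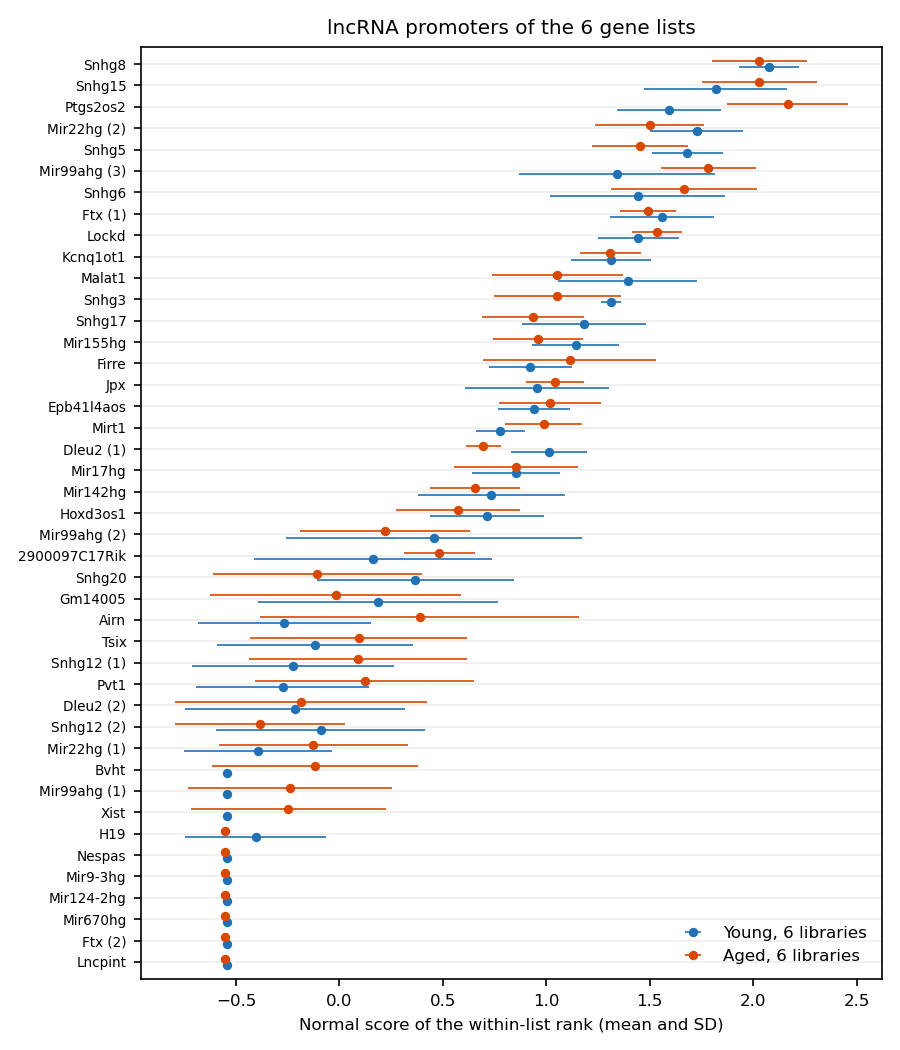
Normal score of the within-list rank (x axis, mean and SD over 6 libraries) at 3 months (blue) and 18 months (orange) for each member of the 6 gene lists (rows). Numbers in brackets count the regions of a gene from its lowest coordinate. Snhg8 is highest at 3 months and Ptgs2os2 at 18 months, and members near −0.55 at both ages had almost no summits; no member passed the age test.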

How the data were processed

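ATAC-seq had been made on 12 libraries of sorted HSCs. The authors aligned single reads to mm10 and called peaks in each library, and the submitters' processing notes name Bowtie2 2.5.3, MACS2 2.2.7.1, bedtools 2.31.0 and edgeR 3.30.3. The deposited summit lists give 1 position and 1 score, the −log10 of the q-value, per summit. They hold no read counts, so depth is unknown and precision rests on the number of libraries. The methods state a q-value limit of 0.001, a score of 3, whereas the lists run down to 2.00 and were filtered here at 3.

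Windows of 250 bp on each side of every summit were merged over the 12 lists. Starts came from GENCODE vM21 (basic set) and sequence from RefSeq GRCm38.p6. Every list was cut to 35696 summits, ranked over all regions and turned into normal scores. One limma fit (3.58.1, R 4.3.3) of 4 group means was made on regions called in at least 3 lists. Benjamini-Hochberg adjustment was over all of them, with a threshold of 0.01. The fit was also run on simulated data with independent normal noise. Those data had no shared lowest value and no difference in list length, so they cannot decide how the fit behaves under either. Single values were tested by exact permutation over libraries (400 labellings, or 4096 sign sets; two-sided; threshold 0.05). Replicates were pools of mice, called biological replicates in the methods and not described further in the labels, so p-values measure the spread between these pools. Python 3.11.15, numpy 2.4.6, scipy 1.17.1, pandas 2.3.3, pysam 0.24.0 and blastn 2.17.0 were also used.

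Members were named when past the threshold, among the 12 highest means, among the 3 lowest p of a contrast without calls, called in all lists of 1 age and none of the other, or in a gene list. The members, lists and motifs were chosen with earlier results of these data known. Alternatives changed the score limit, window, start distances, list length, score, region filter, covariates, annotation and libraries.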

Additional observations from a re-analysis of the deposited data

Results flagged for a closer look

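Summits outside the chromosomes analysed were counted in the deposited lists with no control to set them against. Summits at the starts of Y-linked genes numbered 9, in 3 young lists (2, 5 and 2 summits) and in 0 aged lists. Chromosome Y held 344 summits in all, between 16 and 39 per list, of which 1, in Young Mlkl-/- 1, was at a lncRNA start. Unplaced scaffolds held 1131 summits, between 81 and 110 per list. The groups of 3 were too small for a check of single libraries that stand apart.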

How the results depend on the processing

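The number of lncRNA promoters that changed with age (23) depended on how list length was treated: it was 0 with list length as a covariate and 41 with lists of unequal length. It was 6 with the presence of Y-gene summits as a covariate, 2 in the 9 libraries with the tag, 12 with percentiles of ranks, 14 for starts within 500 bp, 59 at an adjusted p under 0.05, and 11 to 24 with 1 library left out (11 without Aged Mlkl-/- 1, 13 without Aged WT 3, 14 without Young Mlkl-/- 1, Aged WT 1 or Aged Mlkl-/- 3, and 15 without Young WT 2 or Aged Mlkl-/- 2). The cause was not tested. Within WT the count of 0 became 6 with unequal lists, 1 for regions called in at least 6 lists and 15 at an adjusted p under 0.05. Within Mlkl-/- it became 4 with unequal lists, 10 at an adjusted p under 0.05 and 0 to 1 with 1 library left out (1 without Young Mlkl-/- 3). Both genotype counts by age, the pooled genotype count and the interaction count were 0 under every alternative run. With replicate numbers as a block, 19 members passed, all among the 23, but same-numbered libraries did not deviate together (r from −0.30 to 0.13 over 18 pairs), so no pairing was assumed. The comprehensive annotation, chosen after seeing the data, gave 25.

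The age difference in members per list missed p = 0.05 with scores of at least 5 (14.8, exact permutation p = 0.07), windows of 100 bp (11.7, p = 0.09), starts within 500 bp (14.2, p = 0.055) and the 9 tagged libraries (15.9, p = 0.1), and ran from 14.9 to 24.4 with 1 library left out. The genotype difference in members per list changed sign with all deposited scores (−2), scores of at least 5 (−1.5), windows of 100 bp (−2), starts within 500 bp (−3.5) and the tagged libraries (−1.58), and ran from −2.5 to 5.42 with 1 library left out. Leaving out 1 library moved the genotype Jaccard difference between −0.00496 and 0.00281, and the age difference in the gap to coding promoters between 0.024 and 0.056, the latter without Aged WT 2 (exact permutation p = 0.01). No named member that changed turned direction under any alternative run. Unknown depth limits all of these values, since a region without a summit cannot be told apart from one just under the limit.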
